A study of Mus musculus with 4 samples.

Results

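Aerocytes are the large, thin capillary endothelial cells of the alveolus. They were taken here as 1746 of the 16541 cells kept from the lungs of both genotypes, 1195 of them from Cre_Pos and 551 from Cre_Neg mice. A cell was a member when it had a transcript (unique molecular identifier, UMI) of at least 3 of the pan-endothelial genes Cdh5, Ptprb, Pecam1, Tek, Calcrl and Prex2, of at least 3 of the aerocyte genes Car4, Ednrb, Rgs6, Tmeff2, Lmntd1 and Fibin, and of fewer than 3 of the epithelial genes Sftpb, Lamp3, Slc34a2, Abca3, Dnah5 and Hydin. Cells were kept with at least 500 detected genes and at most 15% mitochondrial UMIs. Members were thus chosen by the measured UMIs of these genes, whose levels describe the choice of cells and are no result.

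Cre_Pos mice carried Shh.Cre and the floxed p73 allele (Shh.Cre+/Flox-p73), in which exons 7 to 9 of Trp73 can be removed. Cre_Neg mice (Shh.Cre-/Flox-p73) were their littermates, homozygous for the same floxed allele and without Cre, so both groups carried floxed p73. Mice were C57Bl6/J at 8 weeks of age, and the lungs of 6 mice of each genotype were pooled into 1 suspension. After perfusion with PBS and enzymatic digestion, ACK lysis took out red cells, leukocytes were reduced by CD45 depletion, epithelial cells were enriched by Epcam, and live cells were sorted as DAPI-negative. Transcripts were counted by SPLiT-seq, a method that marks each cell by splitting and pooling through rounds of barcoding wells, with both pools in the same 4 sublibraries. In the lung the Shh driver of Cre is known to act in the epithelium and not in the endothelium. Recombination of the allele is therefore not expected in aerocytes, and whether it occurred there was not tested. The sex of the mice is not given, and the study was set up to compare lungs with and without p73 in that lineage.

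The capillary bed of the alveolus has 2 kinds of endothelial cell. Aerocytes, marked by the carbonic anhydrase gene Car4, spread over the alveolar wall opposite the flat type 1 epithelial cells and serve gas exchange and the passage of leukocytes. General capillary cells regulate vessel tone and divide to replace both kinds. Signals known to pass between them include apelin, which aerocytes make (Apln) and general capillary cells receive (Aplnr), and vascular endothelial growth factor A from the epithelium, received through Kdr.

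With 1 pool of mice per genotype there was no test of any difference, and the 4 sublibraries are aliquots of the same pools, not replicate animals. All intervals are 95% intervals and cover counting error only. Aerocytes held 12829093 UMIs in Cre_Pos and 4922653 in Cre_Neg, with medians of 9433 and 7907 UMIs and of 2909 and 2606 genes per cell. Aliquots yielded 214 to 348 Cre_Pos and 105 to 152 Cre_Neg aerocytes. The study states 20000 cells, set beside 647296 barcodes in the matrix and 16541 after the filters above. A doublet caller marked 14 members, 11 in Cre_Pos and 3 in Cre_Neg, and 4 well combinations occurred in more than 1 sublibrary among the members. Of the members with a call from Xist or 4 Y-linked genes alone, 4.01% in Cre_Pos and 11.9% in Cre_Neg had Y-linked UMIs, so the pools differed in the sex of their cells, and values in cells with Xist only are given beside the results this touches.

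Trp73, the gene that carries the floxed allele, gave 7 UMIs in 5 of the 1195 Cre_Pos aerocytes and 0 UMIs in the 551 Cre_Neg aerocytes, a total that allows up to 0.609 CPM. CPM gives the UMIs of a gene per 1000000 UMIs of the cell class throughout. Shh gave 0 UMIs in the aerocytes of both pools, which allows up to 0.234 CPM in Cre_Pos and 0.609 CPM in Cre_Neg. At this depth neither gene allows a check of the genotype labels in these cells. The related gene Trp53 stood at 33.9 CPM in Cre_Pos and 35.5 CPM in Cre_Neg aerocytes.

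The genes that mark aerocytes were high in the members and low elsewhere, as the rule requires. Car4 stood at 715 CPM in aerocytes and at 46.3 CPM in the 6376 endothelial cells with at most 1 of the 6 aerocyte genes, called other endothelium below. A Car4 UMI was found in 97.4% of aerocytes, 18.9% of other endothelial cells and 1.26% of the 3802 cells marked as type 2 epithelium, which should lack it. Ednrb, the endothelin B receptor, stood at 1085 CPM in aerocytes and 5.96 CPM in other endothelium. Rgs6, a regulator of G protein signalling, had a UMI in 95.7% of aerocytes and 2.09% of other endothelial cells. Tmeff2 stood at 800 CPM in aerocytes and 5.47 CPM in other endothelium, Lmntd1 at 1141 CPM in aerocytes and 29.8 CPM in other endothelium, and Fibin at 225 CPM in aerocytes and 0.695 CPM in other endothelium. Among the pan-endothelial genes of the rule, Ptprb had a UMI in 47.7% of aerocytes, against 99.0% of other endothelial cells, and Tek in 49.3%, against 97.3%. Ptprb encodes the phosphatase that restrains the receptor encoded by Tek.

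The number of aerocyte genes with a UMI is what the rule counted, and is given as a description. Of the 8527 endothelial cells, 4257 had none of the 6 genes, 2119 had 1, 405 had 2, 112 had 3, 138 had 4, 467 had 5 and 1029 had all 6. In the 112 members just inside the limit, the levels of all 15 further aerocyte genes and all 12 general capillary genes lay between those of cells with all 6 genes and of cells with none. In the 405 cells just outside it this held for 12 of the 15 and for 8 of the 12. Nrp1, for one, stood at 2966 CPM with all 6 genes, 1265 CPM with 3, 857 CPM with 2 and 899 CPM with none. Apln stood at 178 CPM in cells with all 6 genes, at 27.8 CPM in cells with 3, at 10.5 CPM in cells with 2 and at 3.08 CPM in cells with none. Kdr stood at 2928 CPM with all 6 genes, 1026 CPM with 3, 440 CPM with 2 and 347 CPM with none. The basement membrane gene Hmcn1, high in general capillary cells, ran the other way, at 357 CPM with all 6 genes, 1607 CPM with 3, 2679 CPM with 2 and 3168 CPM with none. Cells with 5 of the genes differed little from those with all 6, at 161 CPM for Apln and 2837 CPM for Kdr.

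**Figure D1:**
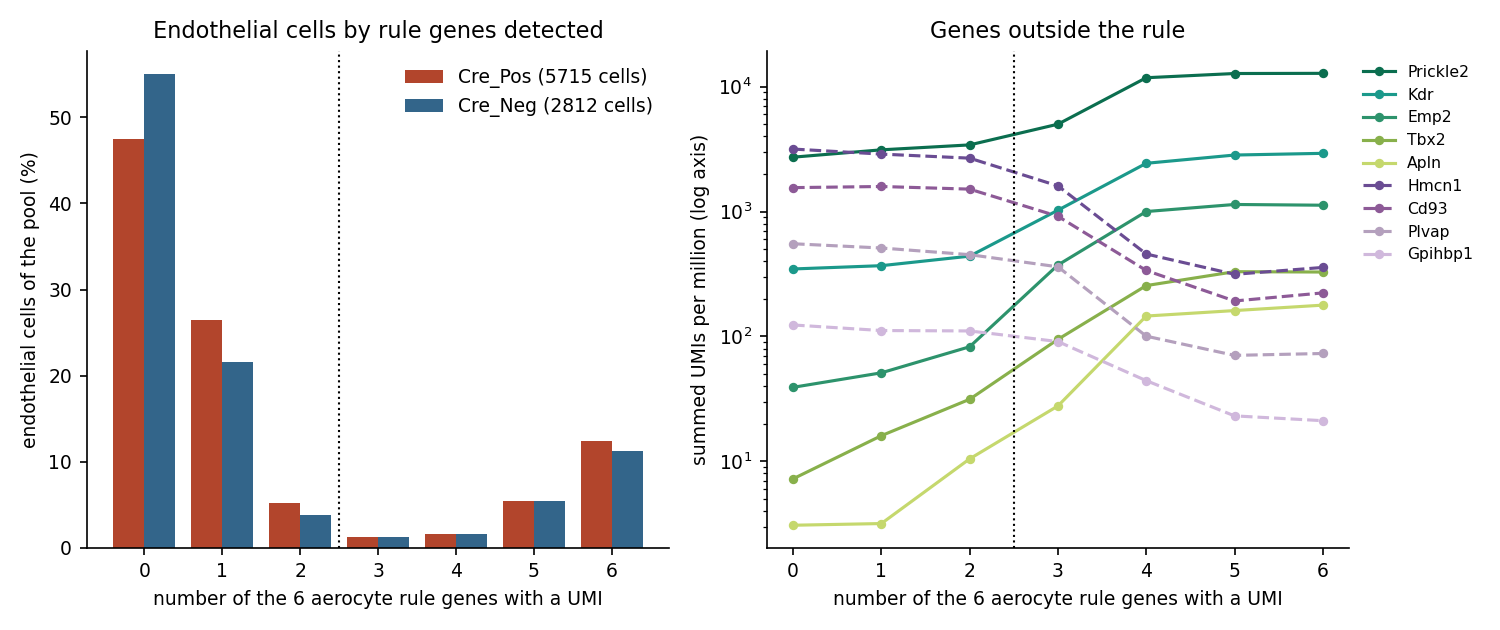
Left, percentage of the endothelial cells of each pool (bars, Cre_Pos and Cre_Neg) by the number of the 6 aerocyte genes with a UMI; right, level in CPM (log axis) of 9 genes outside the rule in both pools summed, against the same number. Apln, Tbx2, Kdr, Emp2 and Prickle2 (solid) are higher past the dotted limit of the rule, while Hmcn1, Cd93, Plvap and Gpihbp1 (dashed) are lower.

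Aerocytes made up 13.7% (12.9 to 14.4) of the kept cells of Cre_Pos and 7.07% (6.51 to 7.66) of those of Cre_Neg, by exact Clopper-Pearson intervals. In the 4 sublibraries this share was 14.8%, 13.0%, 13.8% and 12.9% in Cre_Pos, against 7.03%, 7.15%, 7.03% and 7.07% in Cre_Neg. The ranges did not overlap, and the ratio of the pooled shares was 1.93 (1.75 to 2.14). The denominator of that share includes the epithelium, which the bead steps enriched, and all endothelium was likewise larger in Cre_Pos, with 5715 of 8748 kept cells, against 2812 of 7793 in Cre_Neg.

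Within the endothelium the genotypes lay close together. Aerocytes were 20.9% (19.9 to 22.0) of endothelial cells in Cre_Pos and 19.6% (18.1 to 21.1) in Cre_Neg, a ratio of 1.07 (0.964 to 1.18). The sublibraries gave 22.5%, 20.1%, 20.9% and 19.9% in Cre_Pos, against 20.0%, 20.4%, 18.8% and 19.1% in Cre_Neg, so that the ranges overlapped. In cells with Xist only, the shares were 21.4% in Cre_Pos and 21.5% in Cre_Neg, a ratio of 0.996 (0.889 to 1.12). In the fewer cells with Y-linked UMIs only, they were 44 of 165 cells, 26.7%, in Cre_Pos and 57 of 368 cells, 15.5%, in Cre_Neg, a ratio of 1.72 (1.13 to 2.60). With every cell thinned to 2000 UMIs before the rule was applied, Cre_Pos had 1070 aerocytes of 5529 endothelial cells and Cre_Neg 500 of 2570.

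**Figure D2:**
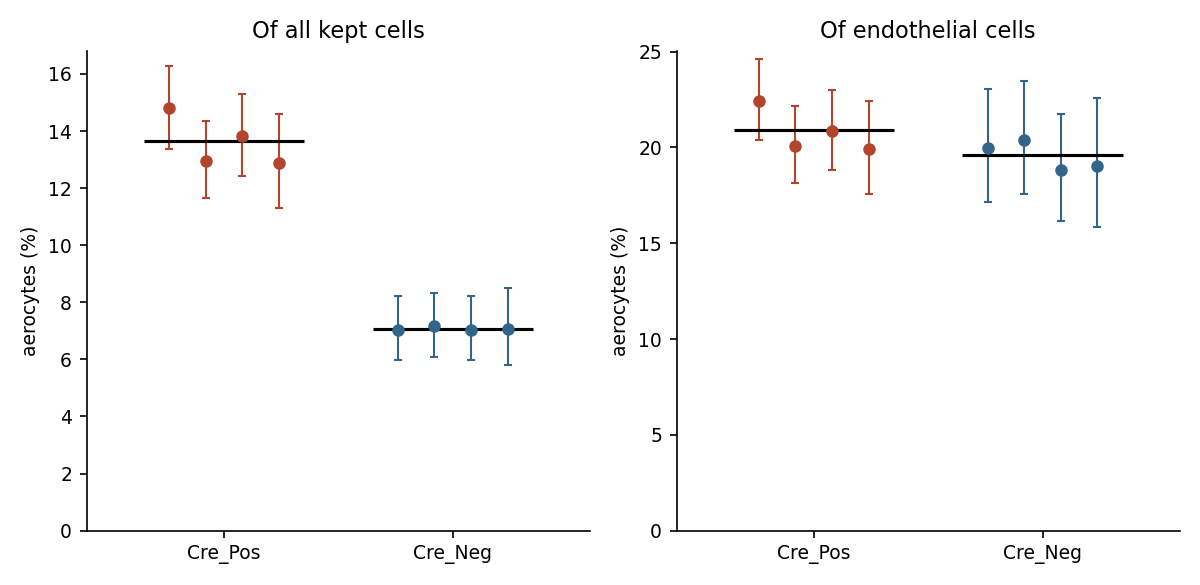
Aerocytes as a percentage of all kept cells and of endothelial cells, by pool, with each sublibrary as a point with its exact 95% interval and the pooled share as a line. Cre_Pos lies above Cre_Neg without overlap among kept cells (13.7% and 7.07%) and overlaps it among endothelial cells (20.9% and 19.6%).

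Aerocytes were next set beside other endothelium, both pools summed. Since the rule that chose the cells read 12 genes of the same transcriptomes, this is a description. Of 12646 genes with at least 100 UMIs, 583 (4.61%) were at least 2-fold higher in aerocytes and 1929 (15.3%) at least 2-fold lower, and the median log2 ratio over these genes was -0.07. Gene lists below count members with at least 20 UMIs, and over all 16687 genes with that many, 5.02% were at least 2-fold higher, 21.3% were at least 2-fold lower (26.3% in either direction), and the median was -0.13. In all 8 sums of the 4 sublibraries of both pools, 525 (4.15%) of the 12646 genes were higher with the same sign and 1349 (10.7%) lower. Ranges below cover the same 8 sums.

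Genes outside the rule were ranked by the interval bound nearest 0 among those with the same sign in all 8 sums, and the leading higher ones were nearly silent in other endothelium. Slc5a12, a sodium-coupled lactate transporter, ranged over 180 to 248 CPM in aerocytes with a median of 208 CPM, against 0 to 1.58 CPM in other endothelium with a median of 0.676 CPM, a log2 ratio of 8.29 (7.76 to 8.87). Pde8b, a phosphodiesterase that breaks down cyclic AMP, ranged over 925 to 1104 CPM with a median of 999 CPM in aerocytes, against 3.48 to 15.5 CPM with a median of 8.87 CPM elsewhere in the endothelium. It was detected in 94.2% of aerocytes and 2.76% of other endothelial cells. Dpysl5, which encodes a collapsin response mediator protein, stood at 153 CPM in aerocytes and 1.34 CPM in other endothelium. The sulfotransferase gene Chst1 stood at 118 CPM in aerocytes and 1.10 CPM in other endothelium. The kinesin gene Kif26b stood at 463 CPM in aerocytes and 8.61 CPM in other endothelium. Begain, Gm40639, Xpnpep2, Usp44, Rprml, Rbfox3, Gm47392, Gm48350, Gm33677 and Frrs1 completed the leading group, with log2 ratios between 5.85 and 8.45. Among genes detected in at least 50% of the cells of either class, a limit chosen after the values were seen, Slc22a23 at 1191 CPM in aerocytes and 32.2 CPM in other endothelium, Egflam at 555 CPM in aerocytes and 15.8 CPM in other endothelium and Tln2 at 373 CPM in aerocytes and 11.2 CPM in other endothelium also stood over 5 log2 units higher in aerocytes.

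Of 15 further genes listed for aerocytes and not read by the rule, 12 were at least 2-fold higher, 1 was at least 2-fold lower, and the median log2 ratio was 2.11. Apln, the ligand of the apelin receptor, ranged over 133 to 235 CPM with a median of 173 CPM in aerocytes, against 1.29 to 6.31 CPM with a median of 2.72 CPM in other endothelium, a log2 ratio of 5.71. Tbx2, a T-box transcription factor, ranged over 276 to 325 CPM in aerocytes, against 7.16 to 12.2 CPM in other endothelium. Sirpa, which binds the CD47 signal on other cells, stood at 212 CPM in aerocytes and 7.96 CPM in other endothelium, and Emp2, a membrane protein of thin epithelial and endothelial cells, at 1077 CPM in aerocytes and 43.7 CPM in other endothelium. The listed genes that went the other way were Hpgd, the enzyme that inactivates prostaglandins, at a log2 ratio of -0.97, and Nckap5 at -1.25. All 12 general capillary genes were at least 2-fold lower in aerocytes, with a median of -2.45. They include Aplnr, which ranged over 9.93 to 19.4 CPM in aerocytes, against 57.7 to 77.6 CPM in other endothelium, the lipase anchor Gpihbp1 at 27.2 CPM in aerocytes and 119 CPM in other endothelium, and the stem cell factor receptor Kit at 164 CPM in aerocytes and 943 CPM in other endothelium. Apelin ligand and receptor thus lay in opposite classes, in each of the 8 sums.

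Genes of larger vessels were mostly low. Of 13 artery genes 9 were at least 2-fold lower and 1 higher, with a median of -2.41. Gja5, a connexin of arterial endothelium, stood at 1.30 CPM in aerocytes and 15.5 CPM in other endothelium, while Dkk2, the higher member, rested on 43 UMIs and kept its sign in 2 of the 8 sums. All 9 measured vein genes were at least 2-fold lower, with a median of -3.18, and von Willebrand factor, Vwf, stood at 37.9 CPM in aerocytes, against 635 CPM in other endothelium. Of 7 lymphatic genes 6 were at least 2-fold lower, with a median of -4.55, and the exception was the receptor gene Flt4 at 138 CPM in aerocytes, against 114 CPM in other endothelium. The leading lower genes of the same ranking, Adra1a, Itga8, Olfm2, Muc5b, Pgm5, Mpeg1, Tnc, Pkhd1l1, Reln, Ppp2r2c, Slc6a2 and Cpe, were each found in at most 4.67% of other endothelial cells. They are not all vessel genes. Muc5b, also a marker of club and secretory cells, stood at 6.51 CPM in Cre_Pos and 70.1 CPM in Cre_Neg other endothelium. Over the alternatives Muc5b ran from -6.85 to -0.86 and Tnc from -7.54 to -0.97. The part of other cell types in these values was not tested. Slc6a2, the noradrenaline transporter, reached 983 CPM in the 400 cells with vein genes, and Reln 1519 CPM in the 27 cells with lymphatic genes. Among widely detected genes the lower ones had log2 ratios between -2.88 and -2.70. Hmcn1 ranged over 300 to 629 CPM in aerocytes, against 2951 to 3284 CPM in other endothelium, and Cemip2, a hyaluronan-degrading membrane protein, stood at 253 CPM in aerocytes and 1724 CPM in other endothelium. Itga6, Npr3, Entpd1, Sntb1, Ntn1, Ltbp1, Gna14, Eln, Myrip and Arhgap28 made up the rest.

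Genes of the growth factor pathway differed in both directions. Of 13 measured genes of vascular endothelial growth factor (VEGF) and angiopoietin signalling, 2 were at least 2-fold higher, 5 lower, and the median was -0.59. Kdr, the main signalling receptor, ranged over 2674 to 2848 CPM with a median of 2745 CPM in aerocytes, against 304 to 389 CPM with a median of 343 CPM in other endothelium, a log2 ratio of 2.96. Its coreceptor gene Nrp1 stood at 2801 CPM in aerocytes and 880 CPM in other endothelium, while the decoy receptor gene Flt1 lay near parity at -0.16. The ligand genes Vegfa and Vegfc were lower, at 64.7 CPM in aerocytes and 387 CPM in other endothelium for Vegfa and at 37.0 CPM in aerocytes and 312 CPM in other endothelium for Vegfc. The coreceptor gene Nrp2 was the lowest of the list at -3.21 on the log2 scale, and the angiopoietin ligand gene Angpt2 stood at -1.65. Tek, the angiopoietin receptor gene that the rule read, stood at -2.43.

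Most genes that act on vessel tone were lower. Of 22 measured vasoactive genes 18 lay below 0, against 60.7% of all genes with at least 20 UMIs, and 4 above it. Among these 22, 13 were at least 2-fold lower, Apln alone was 2-fold higher, and the median was -1.24. Ednrb and Calcrl, listed as vasoactive but read by the rule, are left out of the 22. Ednrb stood at 1085 CPM in aerocytes and 5.96 CPM in other endothelium. Calcrl stood at 7024 CPM in aerocytes and 7566 CPM in other endothelium. Edn1, which encodes the constrictor endothelin 1, ranged over 11.9 to 30.8 CPM in aerocytes, against 118 to 187 CPM in other endothelium. Nos3, the endothelial nitric oxide synthase, ranged over 7.28 to 17.4 CPM in aerocytes, against 73.7 to 84.8 CPM in other endothelium. The natriuretic peptide receptor gene Npr3 stood at 106 CPM in aerocytes and 711 CPM in other endothelium, and the cyclooxygenase gene Ptgs1 at 10.2 CPM in aerocytes and 71.5 CPM in other endothelium. Ace, the angiotensin-converting enzyme, differed by -0.01 on the log2 scale, and the other 3 genes above 0 were S1pr1, a receptor for sphingosine 1-phosphate, at 0.50, Gucy1b1 at 0.46 and Ramp2 at 0.33.

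The matrix-facing surface differed gene by gene. Of 21 basement membrane and integrin genes 3 were at least 2-fold higher and 10 lower, with a median of -0.32. Itgb5 ranged over 284 to 350 CPM in aerocytes, against 3.30 to 14.7 CPM in other endothelium, and Itga3, a laminin-binding subunit, over 449 to 594 CPM in aerocytes, against 89.3 to 105 CPM in other endothelium. Itga6, the other laminin-binding subunit of note, had the opposite order with 71.9 to 153 CPM in aerocytes, against 745 to 873 CPM in other endothelium. The collagen IV genes Col4a1 and Col4a2 lay within 0.27 log2 units of parity. In the 11 genes of caveolae and thin-cell membranes 3 were higher and 1 lower by 2-fold, led by Emp2 and by Prx at 822 CPM in aerocytes and 157 CPM in other endothelium, while the caveolar coat gene Cav1 stood at -0.38. Of 14 junction genes none was 2-fold higher and 2 were lower, with a median of 0.07; the tight junction gene Cldn5 stood at 0.89 and Jam2 at -1.98. Guidance genes split into 6 higher and 9 lower of 22, with log2 ratios of 2.15 for Sema7a and 2.09 for Ntn4, and of -2.71 for Slit2 and -2.64 for Sema3g.

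Transcription factors and immune genes also separated the classes. Of 21 endothelial transcription factors 4 were at least 2-fold higher and 4 lower, with a median of -0.19. Meox1 ranged over 64.9 to 85.7 CPM in aerocytes, against 1.29 to 5.99 CPM in other endothelium, and Tbx3 over 798 to 1048 CPM in aerocytes, against 162 to 187 CPM in other endothelium; the arterial factor gene Sox17 and the venous factor gene Nr2f2 stood at -2.27 and -2.64. Of 13 genes of antigen presentation by the major histocompatibility complex (MHC), 5 were at least 2-fold lower and none higher. All 5 belong to class II or its control: H2-Aa, H2-Ab1, H2-Eb1, Cd74 and Ciita, with log2 ratios between -3.20 and -2.79. The class I light chain gene B2m stood at 0.10. Of 13 measured genes of leukocyte adhesion and inflammation, 3 were higher and 4 lower by 2-fold; Cx3cl1, a membrane-bound chemokine, stood at 99.7 CPM in aerocytes and 26.2 CPM in other endothelium and Icam1 at 188 CPM in aerocytes and 54.6 CPM in other endothelium. Piezo2, a stretch-gated channel, stood at 2501 CPM in aerocytes and 830 CPM in other endothelium, while Piezo1 stood at -1.03.

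The remaining lists are given by counts and examples. Counts of members at least 2-fold higher and lower were 0 and 5 of 20 for bone morphogenetic protein (BMP) and TGF-beta genes, 0 and 4 of 14 for Notch genes, 1 and 3 of 11 for shear stress genes, and 0 and 4 of 14 for glucocorticoid-induced genes. They were 0 and 6 of 19 for interferon genes, 0 and 4 of 16 for hypoxia and glycolysis genes (Aldoa has 2 gene entries), 1 and 0 of 10 for heat shock chaperones, and 1 and 1 of 14 for p53 family and target genes. They were 0 and 8 of 14 for cell cycle genes, 1 and 0 of 16 for immediate early genes, and 0 and 0 of 7 for mitochondrially encoded genes, of which the other 6 are listed at 0. Among them, Bmp6 stood at 465 CPM in aerocytes and 2037 CPM in other endothelium, the Notch ligand gene Dll1 at 9.52 CPM in aerocytes and 56.0 CPM in other endothelium, and the p53 target gene Phlda3 at 31.5 CPM in aerocytes and 6.05 CPM in other endothelium.

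**Figure D3:**
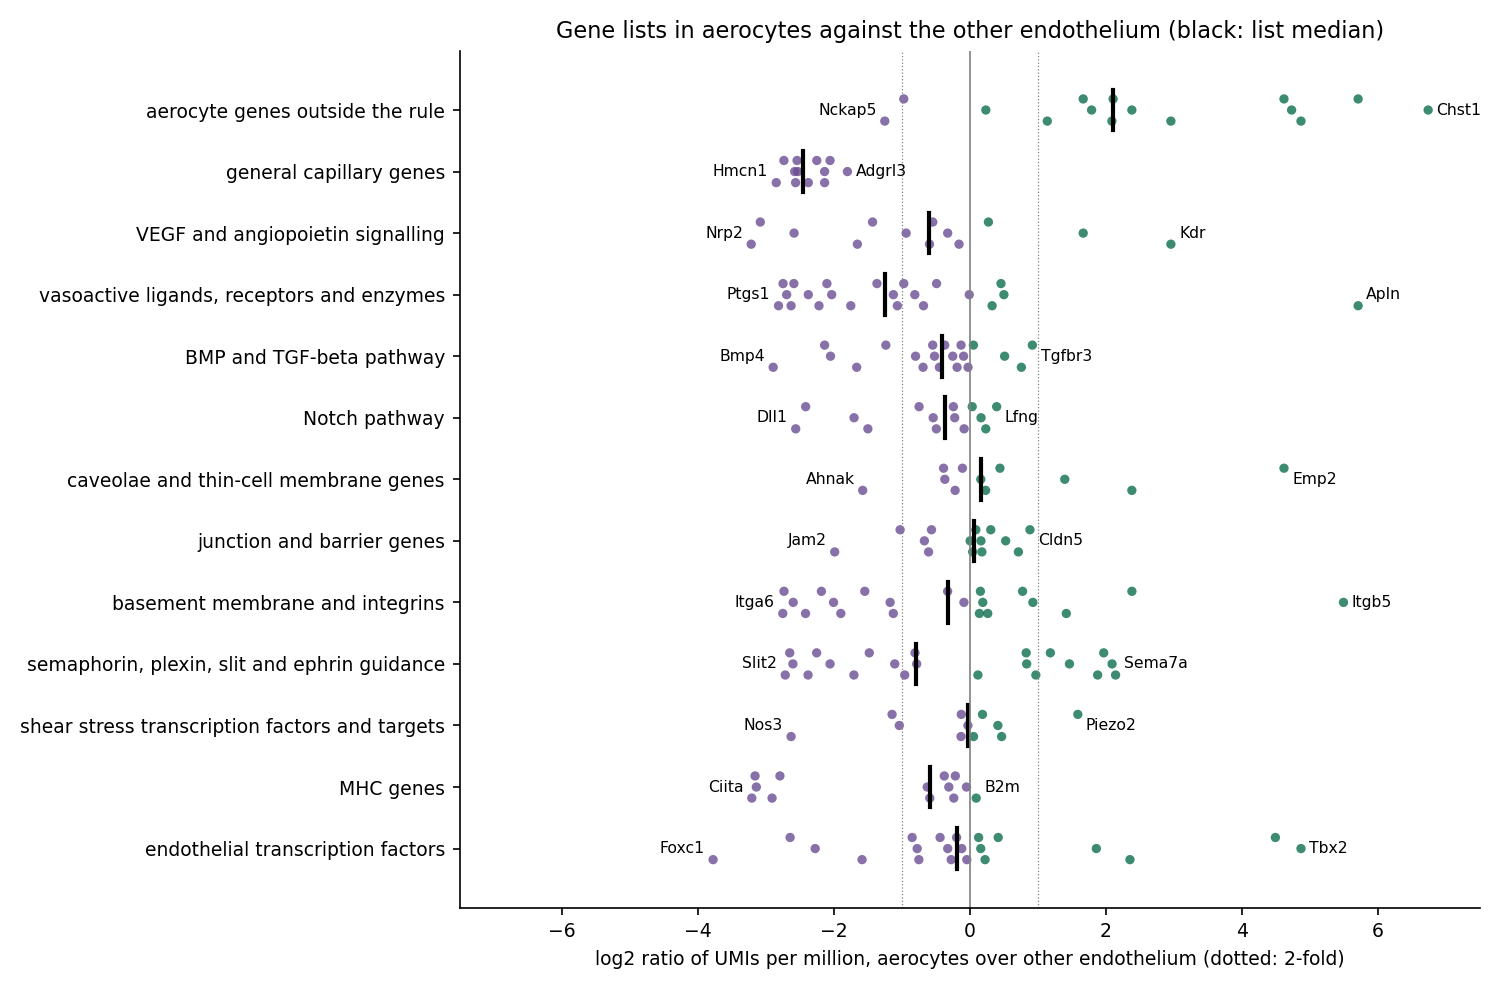
Log2 ratio, aerocytes over other endothelium, of the members of each gene list with at least 20 UMIs, one point per gene (green above 0, purple below), a black bar at the median and the highest and lowest gene named. Aerocyte genes outside the rule lie mostly above 0 (median 2.11) and general capillary genes all below it (median -2.45), while the integrin and guidance lists spread to both sides.

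Levels of genes that mark other cells were read in the members, since an aerocyte and its neighbours can share a barcode. Of 10 markers of type 1 epithelium the sum was 2621 CPM in Cre_Pos and 2996 CPM in Cre_Neg aerocytes, and it rested on Clic5, Emp2 and Hopx, which the endothelium also expresses. Ager, Col4a3 and Pdpn, which define type 1 cells, stood at 1.46, 1.80 and 0.338 CPM in aerocytes. At least 3 of the 10 type 1 markers had a UMI in 1134 aerocytes (64.9%) and in 5.99% of other endothelial cells. The 10 markers of type 2 epithelium summed to 223 CPM in Cre_Pos and 216 CPM in Cre_Neg aerocytes. In barcodes with at most 50 UMIs, taken as free RNA, they summed to 6742 CPM in Cre_Pos and 7187 CPM in Cre_Neg. At least 3 of the 10 type 2 markers had a UMI in 307 aerocytes (17.6%) and in 8.96% of other endothelial cells. The median depth of these classes was 8974.5 and 6299 UMIs per cell. Type 1 and type 2 epithelium are left out of the next count. UMIs of at least 3 markers of 1 of 10 other cell types (fibroblasts, pericytes, smooth muscle, 3 kinds of leukocyte, 3 kinds of airway cell, mesothelium) were found in 28 Cre_Pos (2.34%) and 11 Cre_Neg (2.00%) aerocytes.

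Cre_Pos and Cre_Neg aerocytes differed little across the transcriptome. Of 9240 genes with at least 100 UMIs, 78 (0.844%) were at least 2-fold higher in Cre_Pos and 15 (0.162%) at least 2-fold lower, and 49 (0.53%) and 11 (0.119%) of these had the same sign in all 4 sublibraries. The median log2 ratio was 0.02, and 5% of genes lay below -0.37 and 5% above 0.47. Over the 12579 genes with at least 20 UMIs used for the lists, 4.68% were at least 2-fold higher and 1.32% lower. Of these genes 54.7% had a ratio above 0 and 45.3% below it, 12% had an interval wholly above 0 and 8.47% wholly below it. In Xist-only aerocytes 54.7% lay above 0 and 45.3% below, and in Y-only aerocytes 49.2% above and 50.8% below. Counts by sign and interval below are to be read against these shares. Of the 5014 genes detected in at least 20% of the aerocytes of either pool, a limit chosen after the values were seen, 8 were at least 2-fold higher and none lower: Peak1, Egr1, Atf3, Thsd4, Sparcl1, Hspa1b, Hspa1a and Fos.

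Peak1, which encodes a pseudokinase scaffold of the cytoskeleton, stood highest among these. Its level was 212, 222, 250 and 304 CPM in the 4 Cre_Pos sublibraries, against 71.9, 66.2, 69.8 and 67.4 CPM in Cre_Neg. The ranges lay far apart, with a pooled log2 ratio of 1.83 (1.67 to 2.00). A Peak1 UMI was found in 39.6% of Cre_Pos and 30.5% of Cre_Neg aerocytes, or in 17.4% (15.3 to 19.7) and 9.50% (7.15 to 12.3) once every cell was thinned to 2000 UMIs. The ratio was 1.72 in Xist-only cells and 1.36 in Y-only cells. Peak1 was also higher in Cre_Pos outside the aerocytes. Other endothelium held 378 CPM of Peak1 in Cre_Pos and 227 CPM in Cre_Neg, type 2 epithelial cells 374 CPM in Cre_Pos and 87.3 CPM in Cre_Neg, and free RNA 252 CPM in Cre_Pos and 162 CPM in Cre_Neg. The part of free RNA in the aerocyte value was not tested.

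Immediate early genes, transcription factors and regulators that are switched on within minutes by growth factors, stretch or cell isolation, were higher in Cre_Pos. Of 17 listed genes 16 were measured, 15 had a ratio above 0 (54.7% over all genes), 12 had an interval wholly above 0 (12% over all genes), 4 were at least 2-fold higher, and the median was 0.56. The median was 0.45, 0.51, 0.58 and 0.50 in the 4 sublibraries, against a median of 0.03 over all genes with at least 20 UMIs. Atf3, a stress-induced factor, stood at 242, 200, 222 and 243 CPM in Cre_Pos, against 102, 92.7, 74.1 and 90.8 CPM in Cre_Neg, a log2 ratio of 1.32 (1.18 to 1.47). The zinc finger factor gene Egr1 stood at 59.7, 67.3, 68.6 and 92.8 CPM in Cre_Pos, against 28.6, 25.8, 18.5 and 20.6 CPM in Cre_Neg, a log2 ratio of 1.60 (1.32 to 1.89). Neither gene had overlapping ranges.

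Subunits of the AP-1 factor followed. Fos stood at 93.6, 111, 104 and 81.5 CPM in Cre_Pos, against 59.7, 49.0, 37.0 and 50.5 CPM in Cre_Neg, a log2 ratio of 1.01 (0.81 to 1.21). Fosb stood at 238, 296, 245 and 247 CPM in Cre_Pos, against 154, 145, 104 and 121 CPM in Cre_Neg, a log2 ratio of 0.97 (0.85 to 1.09). All 4 Cre_Pos values exceeded all 4 Cre_Neg values for both genes. Junb stood at 77.5 CPM in Cre_Pos and 51.2 CPM in Cre_Neg, a log2 ratio of 0.60, and Jun at 858 CPM in Cre_Pos and 780 CPM in Cre_Neg, a ratio of 0.14. Zfp36, which destabilises inflammatory messages, stood at 56.4 CPM in Cre_Pos and 36.2 CPM in Cre_Neg, a ratio of 0.64. Egr3 stood at 8.65 CPM in Cre_Pos and 2.84 CPM in Cre_Neg with the same sign in 3 of 4 sublibraries. Dusp1, a phosphatase that ends MAP kinase signalling, was the exception at 142 CPM in Cre_Pos and 154 CPM in Cre_Neg and a log2 ratio of -0.11.

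The immediate early difference was not the same in all cells. In Xist-only aerocytes the list median was 0.59 and 15 of 16 genes lay above 0. In the 44 Cre_Pos and 57 Cre_Neg aerocytes with Y-linked UMIs only, the median over 14 measured genes was 0.05, and 7 lay above 0. Among these few cells Atf3 had 19 UMIs in Cre_Pos and 58 in Cre_Neg, a log2 ratio of -1.31 (-2.14 to -0.54), and Fosb 45 UMIs in Cre_Pos and 103 in Cre_Neg, a ratio of -0.89 (-1.43 to -0.37). Egr1 kept its direction there with 22 UMIs in Cre_Pos and 12 in Cre_Neg, a ratio of 1.18 (0.10 to 2.32). In other endothelium of all cells the list median was 0.52, with Atf3 at 1.50 and Fosb at 1.19, and in type 2 epithelial cells it was -0.15, with Atf3 at 0.20 and Fosb at -0.35. Free RNA held 220 CPM of Atf3 in Cre_Pos and 201 CPM in Cre_Neg.

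**Figure D4:**
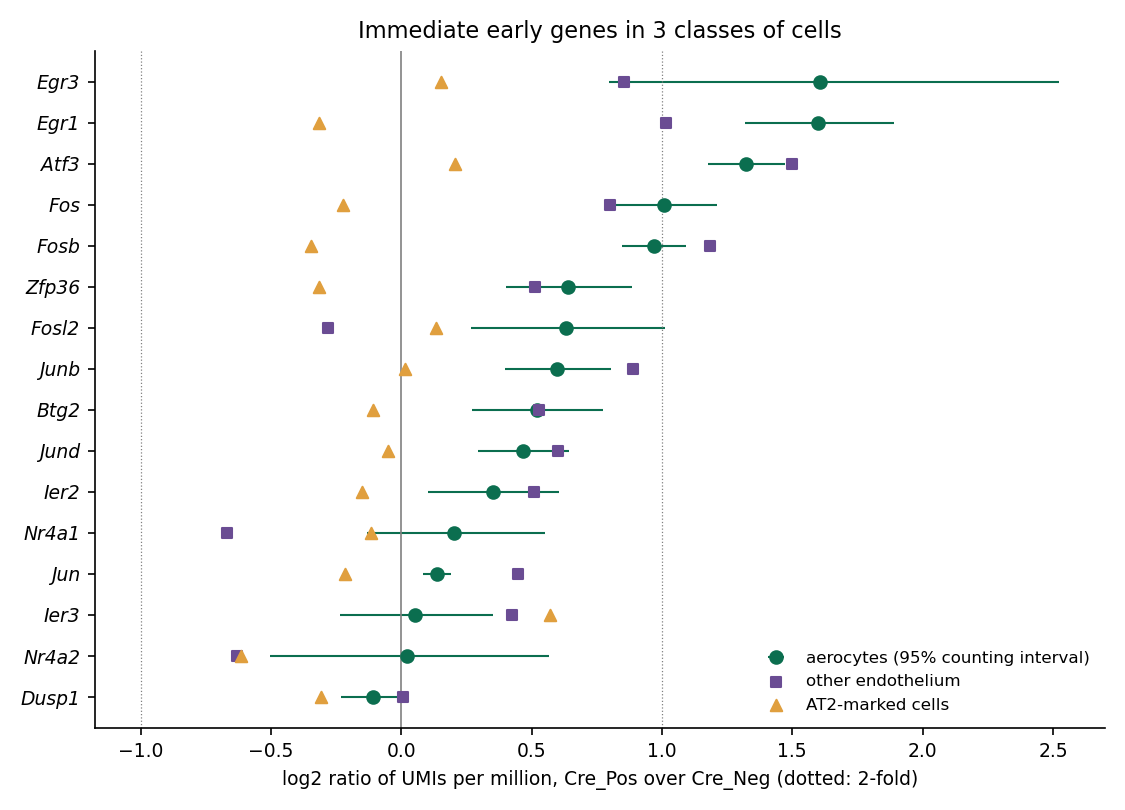
Log2 ratio, Cre_Pos over Cre_Neg, of the 16 measured immediate early genes in aerocytes (circles, with the 95% interval for counting error), in other endothelium (squares) and in cells marked as type 2 epithelium (triangles). Egr1, Atf3, Fos and Fosb stand near or above 1 in aerocytes, while Dusp1 stands at -0.11.

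Promoters of 4 AP-1 genes and of Atf3 are shown because immediate early genes are known targets of factors that bind the cyclic AMP response element, whose core is TGACG, or CGTCA on the other strand. Sequences are the 250 bases before the listed transcription start of the RefSeq annotation of GRCm38.p6, a build used here for these sequences only. Of the 17 genes 14 were in that table, which lacks Egr1, Egr3 and Ier2, and capitals mark the core on either strand. Fos, Fosb, Junb and Atf3 hold a core, while Jun stands for the AP-1 genes Jun, Jund and Fosl2, which hold none in this window.
Fos, chr12:85473640-85473889, plus strand: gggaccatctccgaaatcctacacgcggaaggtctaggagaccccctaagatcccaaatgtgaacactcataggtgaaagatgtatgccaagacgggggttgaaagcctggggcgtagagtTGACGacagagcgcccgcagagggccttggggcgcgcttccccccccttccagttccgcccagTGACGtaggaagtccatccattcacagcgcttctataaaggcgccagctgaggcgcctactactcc
Fosb, chr7:19310046-19310295, minus strand: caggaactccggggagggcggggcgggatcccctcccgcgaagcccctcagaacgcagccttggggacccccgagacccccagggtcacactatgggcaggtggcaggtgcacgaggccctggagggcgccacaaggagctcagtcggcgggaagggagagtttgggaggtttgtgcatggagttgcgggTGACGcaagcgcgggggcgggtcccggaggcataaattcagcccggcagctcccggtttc
Junb, chr8:84978749-84978998, minus strand: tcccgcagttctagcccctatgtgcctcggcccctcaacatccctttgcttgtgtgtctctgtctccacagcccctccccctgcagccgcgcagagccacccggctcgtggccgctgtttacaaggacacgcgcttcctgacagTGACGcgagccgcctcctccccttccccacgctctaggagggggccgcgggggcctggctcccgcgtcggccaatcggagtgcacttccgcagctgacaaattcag
Atf3, chr1:191183334-191183583, minus strand: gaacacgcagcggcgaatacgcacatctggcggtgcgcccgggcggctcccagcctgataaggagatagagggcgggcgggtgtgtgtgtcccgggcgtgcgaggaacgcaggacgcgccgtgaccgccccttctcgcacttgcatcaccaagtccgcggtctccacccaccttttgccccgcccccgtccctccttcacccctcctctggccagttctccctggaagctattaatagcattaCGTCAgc
Jun, chr4.0:95052223-95052472, minus strand: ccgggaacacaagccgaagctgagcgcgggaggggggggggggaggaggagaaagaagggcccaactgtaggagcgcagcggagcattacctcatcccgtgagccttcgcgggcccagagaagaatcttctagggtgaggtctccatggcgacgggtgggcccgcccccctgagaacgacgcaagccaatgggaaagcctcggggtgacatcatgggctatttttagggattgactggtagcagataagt

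Counted from the start site, the core began at -129 and -66 in Fos, -60 in Fosb, -106 in Junb and -7 in Atf3. In all it occurred in 8 of the 14 promoters, among them those of Nr4a1 and Nr4a2 with 4 matches each, and in 17.9% of 27025 mouse promoters of the same length. The full palindrome TGACGTCA, which contains the core, occurred in Dusp1 and Btg2 and in 1.62% of promoters. Within this window the CArG box, bound by serum response factor, occurred in Zfp36 and in 1.40% of promoters. Sites farther upstream and the promoters of Egr1, Egr3 and Ier2 were not read, so the absence of a match there is not shown. Among genes with a core Nr4a1 at 0.20, Nr4a2 at 0.02 and Dusp1 at -0.11 had small ratios, and among those with none in this window Fosl2 stood at 0.63, Jund at 0.47 and Jun at 0.14. A match of letters is no evidence that a factor bound.

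Of 10 heat shock chaperone genes only the near-identical pair Hspa1a and Hspa1b was at least 2-fold higher. Hspa1b stood at 55.0, 42.6, 42.5 and 55.3 CPM in Cre_Pos, against 18.2, 13.9, 21.0 and 31.8 CPM in Cre_Neg, and Hspa1a at 49.7 CPM in Cre_Pos and 23.8 CPM in Cre_Neg, with log2 ratios of 1.24 and 1.07. The other 8 lay between -0.30, for Hsph1, and 0.46, for Hspb1. In the list 4 intervals lay wholly above 0 and 3 wholly below it, and the median was 0.03. In other endothelium Hspa1b and Hspa1a had ratios of 1.71 and 1.72. For Hspa1b the ranges lay apart, while the Hspa1a values of 40.6 to 57.0 CPM in Cre_Pos and 14.6 to 44.0 CPM in Cre_Neg overlapped. In Y-only cells Hspa1a stood at -1.02 (-2.41 to 0.22) on 8 UMIs in Cre_Pos and 20 in Cre_Neg, an interval that includes parity. The genes are near-identical copies, so the split of reads between them is uncertain.

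Other widely detected genes with higher levels in Cre_Pos had separate patterns. Thsd4, a microfibril-associated protein, stood at 229, 216, 233 and 192 CPM in Cre_Pos, against 121, 91.3, 66.5 and 73.0 CPM in Cre_Neg, a log2 ratio of 1.30 (1.16 to 1.45). Its ratio was -0.36 in other endothelium, where it stood at 23.3 CPM in Cre_Pos and 29.9 CPM in Cre_Neg, and 0.10 in type 2 cells, where it stood at 1923 CPM in Cre_Pos and 1799 CPM in Cre_Neg; free RNA held 682 CPM in Cre_Pos and 729 CPM in Cre_Neg. Sparcl1, a matricellular protein, stood at 71.5, 83.3, 69.9 and 108 CPM in Cre_Pos, against 37.2, 31.1, 37.0 and 37.4 CPM in Cre_Neg, a ratio of 1.22. F2r, the thrombin receptor, stood at 57.7 CPM in Cre_Pos and 29.7 CPM in Cre_Neg, a ratio of 0.96. Abhd17c, a depalmitoylase, stood at 79.4 CPM in Cre_Pos and 44.5 CPM in Cre_Neg, a ratio of 0.83, and the guidance cue gene Ntn1 at 87.1 CPM in Cre_Pos and 51.2 CPM in Cre_Neg, a ratio of 0.77. In Y-only cells F2r stood at -1.02 (-2.67 to 0.43) on 6 UMIs in Cre_Pos and 15 in Cre_Neg, an interval that includes parity.

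Apelin was lower in Cre_Pos. Apln stood at 149, 148, 141 and 133 CPM in Cre_Pos, against 197, 224, 208 and 235 CPM in Cre_Neg. The ranges did not overlap, and the log2 ratio was -0.60 (-0.71 to -0.49), with -0.56 in Xist-only and -0.42 in Y-only cells. With cells thinned to 2000 UMIs, 23.6% (21.3 to 26.2) of Cre_Pos and 33.3% (29.4 to 37.5) of Cre_Neg aerocytes had an Apln UMI. In other endothelium Apln stood at 3.33 CPM in Cre_Pos and 2.61 CPM in Cre_Neg, too little to set a direction beside it. Its receptor gene Aplnr stood at 13.6 CPM in Cre_Pos and 13.2 CPM in Cre_Neg aerocytes.

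Other genes of aerocyte identity differed little. The 5 marker genes Car4, Ednrb, Rgs6, Tmeff2 and Fibin summed to 5236 CPM (4932 to 5433 over sublibraries) in Cre_Pos and 5868 CPM (5529 to 6241) in Cre_Neg, and since the rule read them this is a description only. Of the 15 aerocyte genes outside the rule, none differed 2-fold, 4 lay above 0 and 11 below, 7 intervals lay wholly below 0, and the median was -0.06, where 45.3% of all genes lay below 0 and 8.47% of intervals wholly below it. In Xist-only cells 7 of the 15 lay above 0 and 8 below, with a median of -0.04. Prx stood at 798, 772, 795 and 727 CPM in Cre_Pos, against 882, 945, 927 and 1043 CPM in Cre_Neg, and Emp2 at 1038 CPM in Cre_Pos and 1178 CPM in Cre_Neg, at log2 ratios of -0.29 and -0.18. Kdr stood at 2771 CPM in Cre_Pos and 2746 CPM in Cre_Neg, a log2 ratio of 0.01. Nrp1 at 2801 CPM in Cre_Pos and 2803 CPM in Cre_Neg and Hpgd at 912 CPM in Cre_Pos and 909 CPM in Cre_Neg lay closer still to parity. Tbx2 stood at 307 CPM in Cre_Pos and 320 CPM in Cre_Neg.

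General capillary genes lay mostly above 0. Of 12 genes 10 lay above 0, against 54.7% of all genes, 8 had intervals wholly above 0, against 12%, none differed 2-fold, and the median was 0.19. In Xist-only cells 8 of 12 lay above 0 with a median of 0.12. The list had sublibrary medians between -0.05 and 0.55 and a median of -0.50 over 10 measured genes in Y-only cells. Kit stood at 178 CPM in Cre_Pos and 127 CPM in Cre_Neg, a ratio of 0.49, the diaphragm protein gene Plvap at 98.3 CPM in Cre_Pos and 72.3 CPM in Cre_Neg, a ratio of 0.44, and the incretin receptor gene Glp1r at 114 CPM in Cre_Pos and 73.7 CPM in Cre_Neg, a ratio of 0.62. Of the genes read by the rule, Tek stood at 392 CPM in Cre_Pos and 241 CPM in Cre_Neg, and Ptprb at 832 CPM in Cre_Pos and 602 CPM in Cre_Neg. The summed level of the 6 general capillary markers in aerocytes was 1799 CPM (1611 to 2250) in Cre_Pos and 1634 CPM (1440 to 1855) in Cre_Neg, so these sums overlapped. Its part in the ratios above was not tested.

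Dapk1, a death-associated protein kinase, led the widely detected lower genes. It stood at 271, 262, 254 and 216 CPM in Cre_Pos, against 427, 497, 417 and 437 CPM in Cre_Neg, a log2 ratio of -0.83 (-0.91 to -0.75). The ratio was -0.94 in Xist-only aerocytes and -0.76 in other endothelium. In Y-only aerocytes it was 0.28 (-0.04 to 0.61), an interval that includes parity. Bcl2l1, which encodes the survival protein Bcl-xL, stood at 386, 351, 344 and 405 CPM in Cre_Pos, against 532, 556, 549 and 601 CPM in Cre_Neg, a ratio of -0.59, with -0.18 in other endothelium. Both sets of ranges lay apart. Sorbs3, an adaptor of cell adhesion, stood at 140 CPM in Cre_Pos and 212 CPM in Cre_Neg, the cyclin gene Ccnd2 at 39.3 CPM in Cre_Pos and 63.2 CPM in Cre_Neg, and Irgm2 at 49.3 CPM in Cre_Pos and 77.0 CPM in Cre_Neg. Hopx stood at 109 CPM in Cre_Pos and 163 CPM in Cre_Neg, Acadsb at 63.9 CPM in Cre_Pos and 97.3 CPM in Cre_Neg, and Camk1d at 782 CPM in Cre_Pos and 1093 CPM in Cre_Neg. These 6 genes had ratios between -0.69 and -0.48. Gm13387 stood at -0.80, and Gm19951 at -0.67. In aerocytes Gm19951 held 1475 CPM in Cre_Pos and 2354 CPM in Cre_Neg, and in free RNA 1864 CPM in Cre_Pos and 3649 CPM in Cre_Neg. How far free RNA sets the Gm19951 difference was not tested.

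**Figure D5:**
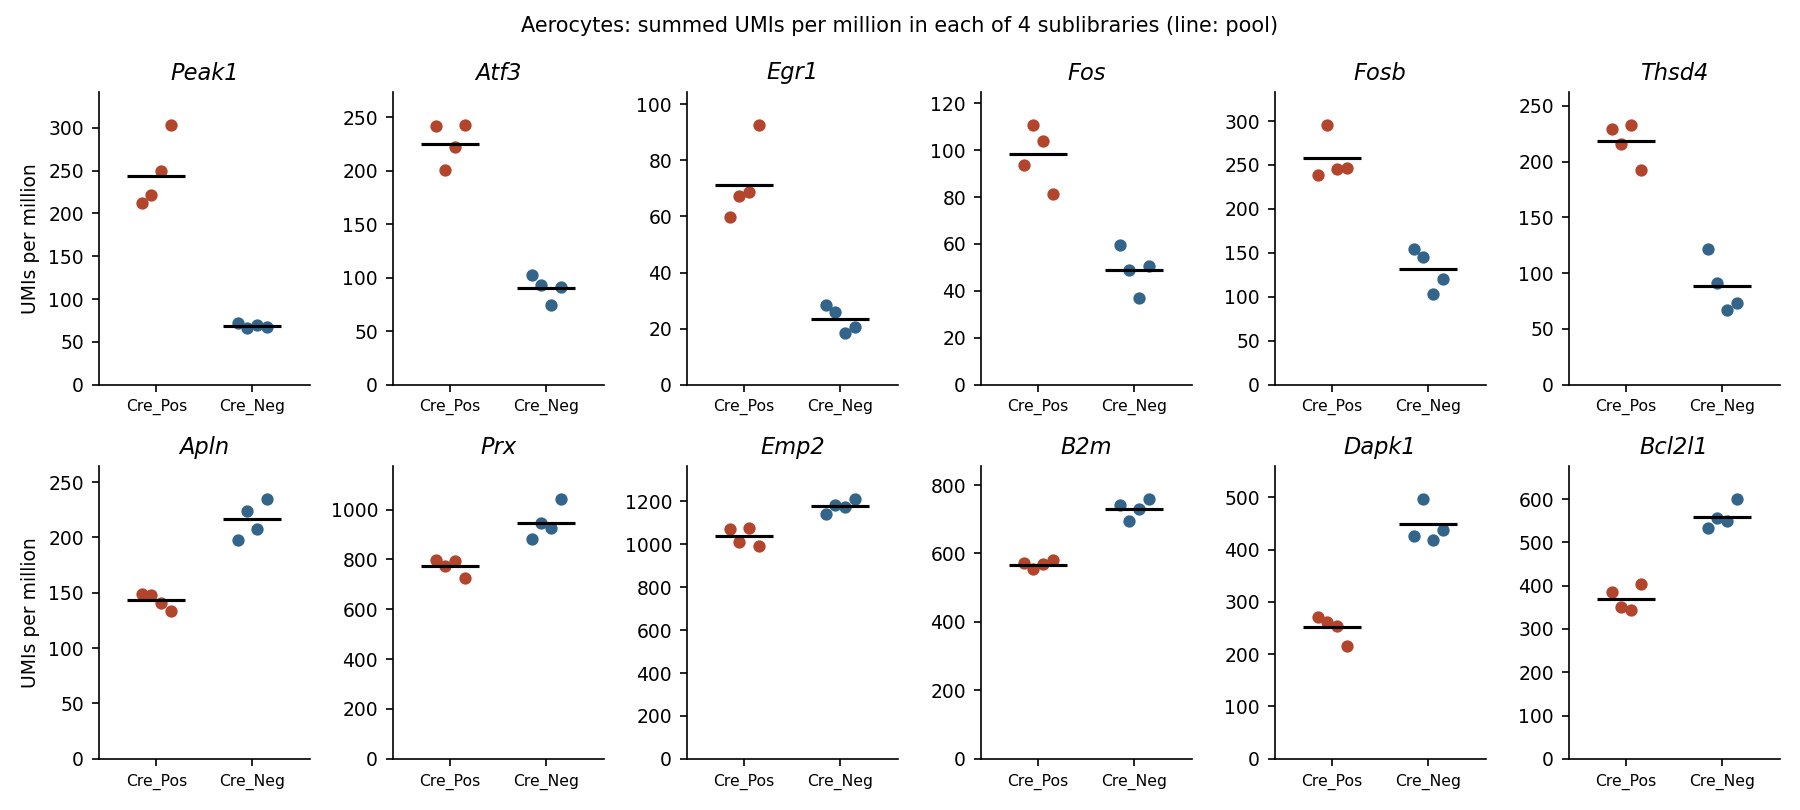
Level in CPM of 12 genes in aerocytes, Cre_Pos left of Cre_Neg, with each sublibrary as a point and a line at the value of the pool. The 4 Cre_Pos points of Peak1, Atf3, Egr1, Fos, Fosb and Thsd4 all lie above the Cre_Neg points, and those of Apln, Prx, Emp2, B2m, Dapk1 and Bcl2l1 all lie below them.

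Most antigen presentation genes were lower in Cre_Pos. Of 13 MHC genes 12 lay below 0, against 45.3% of all genes, 7 had intervals wholly below 0, against 8.47%, 2 were at least 2-fold lower, and the median was -0.38, with -0.42, -0.33, -0.31 and -0.58 in the sublibraries. B2m stood at 572, 553, 568 and 581 CPM in Cre_Pos, against 743, 696, 730 and 760 CPM in Cre_Neg, a log2 ratio of -0.36 (-0.42 to -0.30). Nlrc5, the activator of class I genes, stood at 97.4 CPM in Cre_Pos and 146 CPM in Cre_Neg, a ratio of -0.59, and H2-K1 at 211 CPM in Cre_Pos and 253 CPM in Cre_Neg, a ratio of -0.26. Cd74, the class II invariant chain, stood at 14.9, 8.14, 7.09 and 7.09 CPM in Cre_Pos, against 19.9, 15.9, 19.4 and 31.8 CPM in Cre_Neg, a ratio of -1.18, and Ciita at 6.08 CPM in Cre_Pos and 12.2 CPM in Cre_Neg. In Xist-only cells 11 of 13 MHC genes lay below 0 with a median of -0.34, Cd74 stood at -0.71 and Ciita at -0.39, and in Y-only cells Cd74 had 1 UMI in Cre_Pos and 32 in Cre_Neg. In other endothelium all 13 genes lay below 0 with a median of -0.32, where 57.9% of all genes lay below 0, while in type 2 cells the median was -0.01 with 6 genes above 0. Markers of myeloid cells, which express class II genes, summed to 25.9 CPM in Cre_Pos and 16.3 CPM in Cre_Neg aerocytes, with Marco and S100a8 at 0, and those of B cells to 259 CPM in Cre_Pos and 195 CPM in Cre_Neg. Free RNA held 212 CPM of Cd74 in Cre_Pos and 243 CPM in Cre_Neg, and type 2 cells 773 CPM in Cre_Pos and 777 CPM in Cre_Neg. The part of free RNA in the aerocyte Cd74 values was not tested. Interferon response genes lay below 0 in 15 of 18 with a median of -0.20, 6 intervals wholly below 0 and no 2-fold difference. In Xist-only cells 11 of 18 lay below 0, with a median of -0.13 and 3 intervals wholly below 0, against 8.36% of all genes, and in type 2 cells 15 of 18 lay above 0 with a median of 0.56, where 49.4% of all genes lay above 0.

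Other lists had small ratios, mostly of one sign when all aerocytes were counted. All 7 measured mitochondrially encoded genes were lower in Cre_Pos, with a median of -0.31 and with mt-Cytb at 103 CPM in Cre_Pos and 135 CPM in Cre_Neg; the medians were -0.35 in other endothelium and -0.31 in type 2 cells. Of 11 shear stress genes 9 lay below 0, against 45.3% of all genes, and 9 of 11 in Xist-only cells, with Klf2 at 157 CPM in Cre_Pos and 194 CPM in Cre_Neg and Klf4 at 245 CPM in Cre_Pos and 296 CPM in Cre_Neg. Of 20 BMP and TGF-beta genes 17 lay above 0, against 54.7% of all genes, and 11 intervals lay wholly above it, against 12%, with a median of 0.18 that ran between 0.15 and 0.19 in the sublibraries. In Xist-only cells 15 of 20 lay above 0 with a median of 0.16, and in Y-only cells 7 of 15 with a median of -0.06. Among them the receptor gene Bmpr2, mutated in heritable pulmonary hypertension, stood at 2962 CPM in Cre_Pos and 2726 CPM in Cre_Neg and the inhibitor gene Smad6 at 1186 CPM in Cre_Pos and 965 CPM in Cre_Neg. Of 13 p53 family and target genes 11 lay below 0, against 45.3% of all genes, 3 intervals lay wholly below it, and the median was -0.10. In Xist-only cells 7 of 13 lay below 0 with a median of -0.03. Cdkn1a stood at 190 CPM in Cre_Pos and 236 CPM in Cre_Neg, a ratio of -0.31.

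In the remaining lists few genes differed 2-fold. There were none of 8 vein genes apart from Slc6a2 at 1.79 CPM in Cre_Pos and 17.3 CPM in Cre_Neg, whose Cre_Neg values of 0, 43.7, 16.0 and 0 CPM spread widely, and none of 3 lymphatic, 14 VEGF, 14 Notch, 16 junction, 11 caveolar, 10 glucocorticoid, 10 leukocyte adhesion or 13 hypoxia genes. Medians of these lists ran between -0.19 and 0.21. Among 21 vasoactive genes Gucy1a1, a subunit of the nitric oxide receptor, stood at 17.3 CPM in Cre_Pos and 6.70 CPM in Cre_Neg, a ratio of 1.37, and Ednra at 2.65 CPM in Cre_Pos and 0.813 CPM in Cre_Neg; Gucy1a1 had 128 of its 222 Cre_Pos UMIs in 5 cells. Among 20 basement membrane and integrin genes Lama4 and Lamb1, among 22 guidance genes Robo1 and among 20 transcription factors Meox2 were at least 2-fold higher. In Xist-only cells these stood at 0.87 for Lama4, 0.53 for Lamb1, 0.71 for Robo1 and 0.59 for Meox2. Plxna2 and Plxna4, plexin receptors, stood at -0.41 and -0.38. Artery genes had a median of 0.65 from pooled counts and medians between 0.04 and 0.53 in the sublibraries, and the 4 that were 2-fold higher (Gja5, Dkk2, Bmx and Mgp) had at most 57 UMIs each.

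Apart from Peak1, the leading genes in the ranking by the interval bound nearest 0 were read in few cells. Kcnq5, a potassium channel gene, had 650 UMIs in Cre_Pos and 12 in Cre_Neg, a log2 ratio of 4.38, and 553 of the 650 came from 5 cells. Trpc6 had 168 UMIs in Cre_Pos, 146 of them in 5 cells, and 4 in Cre_Neg, and the proliferation gene Mki67 had 138 in Cre_Pos, 135 of them in 5 cells, and 4 in Cre_Neg. Clstn2, Nlgn1, Aff2, Postn, Sox5, Adcy8, Pdgfrb and Egfr, with ratios between 2.37 and 4.36, had a UMI in at most 4.02% of Cre_Pos aerocytes. Of the 8 measured cell cycle genes 4 were at least 2-fold higher, with sublibrary medians of 2.09, -0.96, 0.78 and -0.01. The 9 pericyte markers, Pdgfrb among them, summed to 58.9 CPM (45.4 to 72.6) in Cre_Pos and 22.8 CPM (17.3 to 29.5) in Cre_Neg aerocytes, with UMIs for 9 of the markers in Cre_Pos and 7 in Cre_Neg. Fibroblast markers summed to 134 CPM (6.02 to 249) in Cre_Pos and 61.6 CPM (0.866 to 191) in Cre_Neg. Without members with 3 markers of such cells, an exclusion chosen after the values were seen, the genes at least 2-fold higher came to 33 instead of 78, Kcnq5 stood at -0.075, Adcy8 at -0.69, Pdgfrb at -0.89 and Egfr at -0.89, while Peak1 stood at 1.87, Atf3 at 1.28, Egr1 at 1.80 and Apln at -0.59. The exclusion itself read Pdgfrb, Trpc6 and Postn as pericyte markers, so the fall of Pdgfrb describes the choice of cells and is no result.

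On the lower side the leading genes were also sparse. Myh11, the smooth muscle myosin, had 192 UMIs in Cre_Pos and 184 in Cre_Neg, a ratio of -1.32, and the Cre_Pos values of 13.7, 11.7, 12.2 and 23.7 CPM overlapped the Cre_Neg values of 18.2, 72.8, 14.3 and 33.7 CPM. Smooth muscle markers summed to 17.9 CPM in Cre_Pos and 38.8 CPM in Cre_Neg aerocytes. St6galnac5, Gm29684, Gm29865, Gm4951, Chrm3, Fam161a and Cdh18 had ratios between -1.36 and -1.05, each with a UMI in under 10% of the aerocytes of either pool. In Y-only cells Chrm3 had 31 UMIs in Cre_Pos and 0 in Cre_Neg, and Gm29865 had 15 in Cre_Pos and 2 in Cre_Neg, the opposite direction. Gm4951 kept its direction there, with 3 UMIs in Cre_Pos and 26 in Cre_Neg. The Y-only intervals of Myh11, St6galnac5, Gm29684, Fam161a and Cdh18 included parity.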

How the data were processed

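Single-cell RNA was measured by SPLiT-seq in 1 pool of lung cells per genotype, each read in 4 sublibraries. The authors deposited a matrix of UMI counts per gene and cell barcode, with a table of cells whose name columns give pool and wells. For alignment and counting, the tools are not stated in the sources used here. The submitters' processing notes name GRCm39, while the deposited gene table names mm10, so no coordinates were taken from the files. Of 647296 barcodes with 57010 genes in the table, those with 500 or more detected genes and no more than 15% of UMIs from mt- genes were kept. Members and gene lists were chosen with earlier results of these data known. UMIs were summed per class and pool and divided by the class total (CPM), and log2 ratios carry exact conditional binomial 95% intervals, with a sum of 0 set to 3 counts. Shares carry exact Clopper-Pearson intervals. UMIs are counted molecules, and intervals and floors cover counting error only. With 1 pool per genotype no p-value was computed, and no test gives the spread between mice. Genes were counted from 100 UMIs, and list members from 20 UMIs, over both classes compared.

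Named genes were those at least 2-fold apart with the same sign in all 4 sublibraries (all 8 sums for aerocytes against other endothelium), ranked by the interval bound nearest 0, up to 12 each way for genotype and 15 higher and 12 lower for cell class. Mitochondrial, ribosomal, haemoglobin, Xist and Y-linked genes and the genes of the rule were left out. Members of the lists were named beyond that rule after their values were seen. The lists of widely detected genes were added after the values were seen. Doublets were called with Scrublet in scanpy 1.11.5 in each sublibrary and were not removed; 183 of 16541 kept cells were called. Alternatives were a rule of 2 or 4 aerocyte genes, cells with Xist only, called doublets removed, other UMI limits, other scalings, cells thinned to 2000 UMIs, each sublibrary left out and, added later, removal of cells with 3 markers of another cell type. The ratio script was tested on simulated data. Python 3.11.15, numpy 2.4.6, scipy 1.17.1 and pandas 2.3.3 were used.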

Additional observations from a re-analysis of the deposited data

Results flagged for a closer look

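In 178 groups of 4 sublibraries, 22 had a sublibrary farther from the others than Dixon's 95% limit allows. Chance gives about 1 in 20 only for normally distributed values. A gene with UMIs in just 1 of the 4 sublibraries is always past the limit, so the 22 cannot be set against that rate. Values below are CPM in aerocytes. Among widely detected genes, Fosb stood at 296 in Cre_Pos sublibrary 2, against 238 to 247 in the others, Sparcl1 at 31.1 in Cre_Neg sublibrary 2, against 37.0 to 37.4, and Sorbs3 at 242 in Cre_Neg sublibrary 2, against 196 to 202. Slc5a12 stood at 180.0 in Cre_Pos sublibrary 1, Chst1 at 119 in Cre_Neg sublibrary 3 and Gm47392 at 32.9 in Cre_Neg sublibrary 1. Cd74 stood at 14.9 in Cre_Pos sublibrary 1, against 7.09 to 8.14 in the others, and Myh11 at 23.7 in Cre_Pos sublibrary 4, against 11.7 to 13.7.

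The other values rest on few UMIs. In Cre_Neg sublibrary 2, Nlgn1 stood at 1.32, Aff2 at 1.99 and Adcy8 at 4.63. In Cre_Pos sublibrary 2, Adra1a, Mpeg1 and Pkhd1l1 stood at 0.271 each, Itga8 at 0.543 and Olfm2 at 0. In Cre_Neg sublibrary 3, Itga8 stood at 2.52 and Pgm5 at 3.37. Tnc stood at 0.354 and Slc6a2 at 5.31 in Cre_Pos sublibrary 4, Ppp2r2c at 0.311 in Cre_Pos sublibrary 1 and Pkhd1l1 at 0.866 in Cre_Neg sublibrary 1.

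Cdh18, a cadherin, ran in opposite directions in the classes. Its log2 ratio was -1.05 (-1.59 to -0.52) in aerocytes, at 5.38 CPM in Cre_Pos and 11.2 CPM in Cre_Neg, and 1.03 (-0.09 to 2.34) in other endothelium, at 1.22 and 0.596 CPM. The difference was not tested, and only 34 Cre_Pos and 17 Cre_Neg aerocytes had a Cdh18 UMI.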

How the results depend on the processing

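No paired analysis was possible because there was 1 pool per genotype and the sublibraries are aliquots of the same pools. With at least 4 of the 6 aerocyte genes, Cre_Pos aerocytes were 12.8% of kept and 19.6% of endothelial cells, 38 genes were 2-fold higher in Cre_Pos, and Egfr turned to -0.47. With at least 2 of the 6, Cre_Pos and Cre_Neg shares were 17.1% and 8.46% of kept and 26.1% and 23.4% of endothelial cells, and 37 genes were lower. In Xist-only cells, shares of kept cells were 14.7% in Cre_Pos and 7.81% in Cre_Neg, the Cre_Neg share of endothelium was 21.5%, and 27 genes were lower. Without cells with 3 markers of another cell type, chosen after seeing the data, 33 genes were higher in Cre_Pos and 1253 were lower in aerocytes than in other endothelium, and Kcnq5 turned to -0.075, Adcy8 to -0.69 and Pdgfrb and Egfr to -0.89. Pdgfrb is 1 of the markers that this exclusion read. From 20 UMIs, 589 genes were higher and 166 lower in Cre_Pos, and 3552 were lower in aerocytes. With no limit, 1197 were counted as higher and 4821 as lower in Cre_Pos, and 5689 as higher and 4477 as lower in aerocytes. These counts give no direction, since a sum of 0 was set to 3 counts. A gene with 1 UMI in Cre_Pos alone was thereby counted as lower in Cre_Pos. Likewise, a gene with 1 UMI in other endothelium alone was counted as higher in aerocytes. Thinned to 2000 UMIs, Cre_Pos shares were 12.7% of kept and 19.4% of endothelial cells. Fewer or more cells and genes enter by construction, and other causes were not tested.

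With 1 sublibrary left out in turn, the genes higher in Cre_Pos ran from 54 to 82 and those lower from 11 to 19, and the ratio of shares of kept cells from 1.87 to 1.98. Over all alternatives, Peak1 ran from 1.54 to 1.91, Atf3 from 1.21 to 1.49, Egr1 from 1.42 to 1.80, Fos from 0.87 to 1.13 and Thsd4 from 1.10 to 1.45, whereas Mki67 ran from 0.23 to 4.10, Clstn2 from 0.08 to 3.74 and Postn from 0.31 to 5.13. Of 572 values of genes named for genotype 567 kept their sign, as did all 765 of those named for cell class and 297 of 325 list medians. The named genes had been chosen for the same sign in every sublibrary. Leaving out a sublibrary or using either pool alone could therefore hardly change their sign. For those settings the tally of named genes follows from the choice of genes and is no check. Depth limits genes read in few aerocytes, such as Trp73.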
